A study of Mus musculus with 6 samples.

Results

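The genes described here encode the cell surface proteins, transducers and transcription factors that receive the hedgehog signal: the co-receptors Gas1, Cdon and Boc, the receptor Ptch1, the transducer Smo, the transcription factors Gli1, Gli2 and Gli3, and the ligand-binding inhibitor Hhip. They were taken as all probe sets of the array whose platform annotation gives 1 of these 9 symbols and no other, which made 24 of 45037 probe sets, for 9 of 18193 genes. The values come from optic fissure of mouse embryos of strain C57BL/6J at E11.5 (counted in days of embryonic development), taken by laser microdissection and hybridised to Affymetrix arrays. The 3 FGFR mutant samples had the genotype Six3Cre+;Fgfr1fx/fx;Fgfr2fx/fx, and the 3 control samples had Six3Cre-;Fgfr1fx/fx;Fgfr2fx/fx, so the controls carry the floxed alleles of both FGF receptor genes but no Cre. Six3Cre recombines in the early eye field, so cells of other origin in the dissected tissue would keep both receptors. Each group has an array numbered 8711, 9216 and 9266 in its title. The labels do not say whether embryos were pooled or separate, so each p-value reflects the spread among these arrays alone, and that spread may be technical.

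The optic fissure is the groove along the underside of the optic cup that must close for the eye to form, and hedgehog ligand from the midline patterns the optic stalk and the ventral cup. Without ligand, Ptch1 holds Smo inactive, and Gli3 in particular is cut into a repressor. When ligand binds Ptch1 together with Gas1, Cdon or Boc, Smo is released, and Gli2 and Gli3 stay in their activating form. Cells that respond then transcribe Ptch1, Gli1 and Hhip, which serve as readouts of the pathway, and they lower Gas1, Cdon and Boc. In mice, loss of Gas1 turns ventral retinal pigment epithelium into neural retina.

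The 250 bases before the start sites of Ptch1, Hhip and Gas1 are given as RefSeq sequence of GRCm38.p6, because Ptch1 and Hhip are genes that the pathway raises and Gas1 is one that it lowers. All 3 are read on the minus strand, 5′ to 3′, from chr13:63565736-63565985 for Ptch1, chr8:80058009-80058258 for Hhip and chr13:60177536-60177785 for Gas1. The Ptch1 window lies inside the annotated gene, and part of the Hhip window does. Capitals mark the core letters GGGTGG of the Gli motif or their reverse complement.
Ptch1: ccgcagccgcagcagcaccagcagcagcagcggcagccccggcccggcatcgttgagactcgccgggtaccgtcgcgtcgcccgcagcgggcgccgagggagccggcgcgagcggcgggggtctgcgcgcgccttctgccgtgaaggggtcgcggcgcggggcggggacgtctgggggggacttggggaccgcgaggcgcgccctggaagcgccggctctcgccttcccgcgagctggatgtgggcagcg
Hhip: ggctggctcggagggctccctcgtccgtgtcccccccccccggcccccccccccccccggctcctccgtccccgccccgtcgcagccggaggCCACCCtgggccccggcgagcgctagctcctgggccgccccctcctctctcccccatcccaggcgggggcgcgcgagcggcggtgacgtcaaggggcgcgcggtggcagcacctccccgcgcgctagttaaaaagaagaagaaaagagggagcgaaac
Gas1: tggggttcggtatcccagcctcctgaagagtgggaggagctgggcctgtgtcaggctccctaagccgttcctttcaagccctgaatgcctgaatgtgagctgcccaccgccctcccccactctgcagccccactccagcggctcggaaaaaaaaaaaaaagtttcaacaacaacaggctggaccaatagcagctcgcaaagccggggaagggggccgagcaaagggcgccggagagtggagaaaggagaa
Of the 9 genes, 7 had such a window in the RefSeq table (Gas1, Cdon, Ptch1, Smo, Gli2, Gli3 and Hhip). The longer motif TGGGTGGTC, searched on both strands, was in 0 of these 7 windows and in 0.225% of all 32851 windows in the table. The core GGGTGG, which the longer motif contains, was in the windows of Gli2, Smo, Hhip and Gli3, and in 28.1% of all windows. A match or its absence describes only the letters of these windows.

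The deposited values are linear intensities, scaled to the same 2% trimmed mean in every array. The mutant 8711 array stood apart: its median intensity was 18.1, against 28.7 to 34.6 in the other 5 arrays, its ratio of 3 prime to 5 prime Gapdh signal was 93.6, against 4.26 to 14.96, and it correlated at 0.836 on average with the rest, where the 5 others had 0.917 to 0.932. Differences that this array moved by more than 1.5 times, or whose sign it turned, are therefore also given without it. Means over several probe sets and probe sets under the filter are left out of this rule. Of the targeted receptors, Fgfr1 had intensities of 59.9 to 141 in the mutants and 89.8 to 247 in the controls, and Fgfr2 had 869.9 to 1316 in the mutants and 314 to 474 in the controls. Where these probe sets lie relative to the floxed exons was not analysed here, so they do not check the genotypes. Differences below are on the log2(intensity + 1.7) scale, mutant minus control, which understates the change of dim genes, and were tested with limma over 27022 probe sets. Probe sets with a mean under an intensity of about 15.1 on that scale were not tested.

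Of the 24 probe sets, 16 were tested, at least 1 for each of the 9 genes. The other 8 had values of at most 29.5 in any array. A gene is read from its tested probe set with the highest mean over the 6 arrays unless stated. Gas1 had the largest difference of the 9 genes, Gli2 and Gli3 had slightly higher values in every mutant array than in any control array, and Cdon, Boc, Ptch1, Smo, Gli1 and Hhip had overlapping groups. In limma no gene passed an adjusted p of 0.05, 0 of 9, as for all 12282 genes tested, where 0.0% passed. At an unadjusted p under 0.05 there was 1 of the 9, Gas1, which was higher, against 4.4% of all genes higher and 2.52% lower. The groups did not overlap, with the mutants higher, in 3 of 9 genes, against 9.44% of all genes. No overlap with the mutants lower was found in 0 of 9, against 5.43%. Of the 9 genes 5 had higher values in the mutants, against 53.6% of all genes, and the median difference was 0.10, against 0.03 over all genes. Without the mutant 8711 array 6 of the 9 were higher, against 52.8% of all genes. The groups then did not overlap in 4 of the 9: Gas1, Gli2 and Gli3 were higher, against 15.3% of all genes, and Cdon was lower, against 11%.

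**Figure D1:**
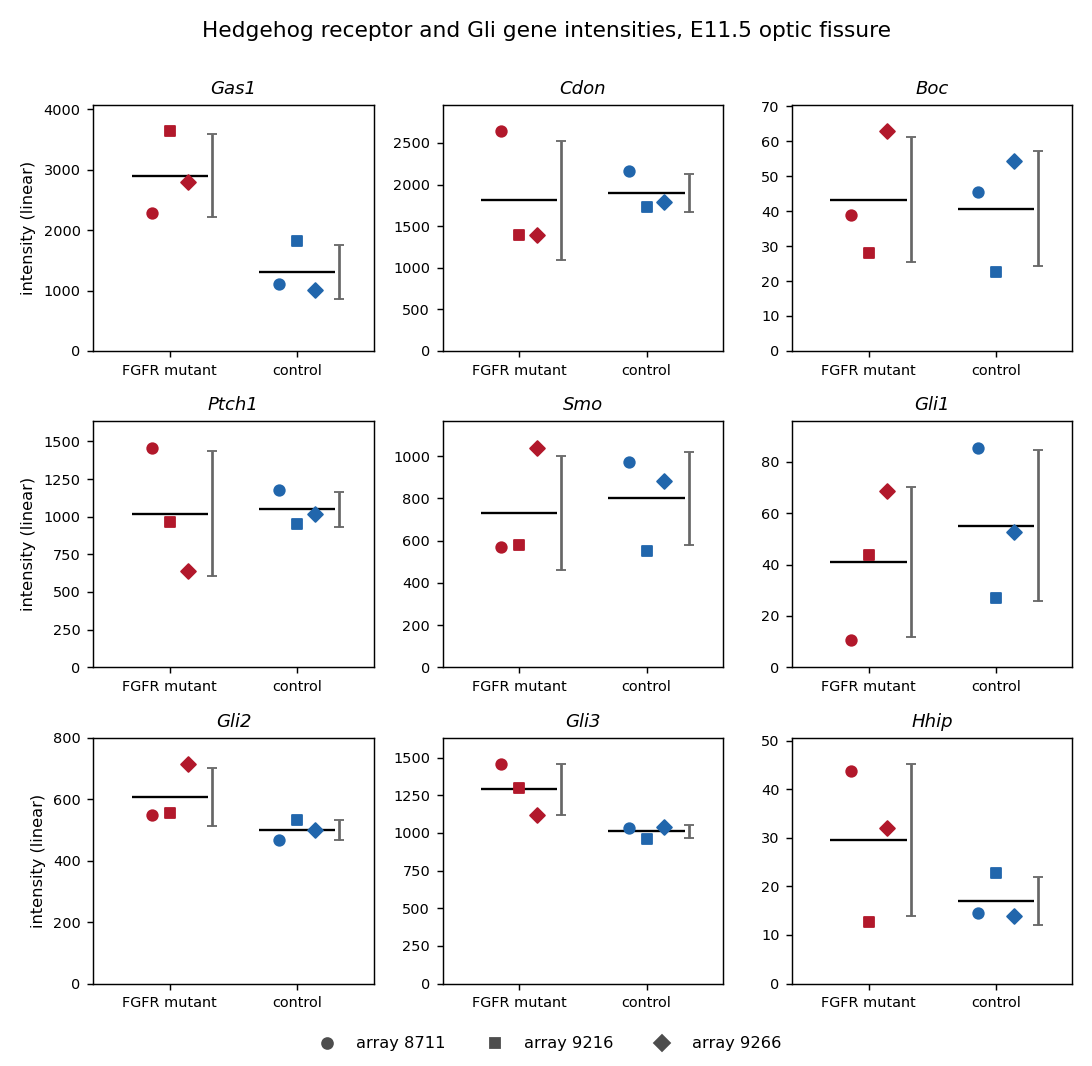
Intensity (linear scale, from 0) of the 9 genes in each array, 1 probe set per gene, with FGFR mutant arrays in red on the left and control arrays in blue on the right. Marker shapes give the title number, bars the mean and whiskers the SD of 3 arrays. The Gas1 values lie between 2277 and 3634 in the mutants, above all control values, while most other genes overlap.

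Gas1 is a membrane-anchored protein that binds hedgehog ligand and presents it to Ptch1. Its intensities were 2277, 3634 and 2796 in mutant arrays 8711, 9216 and 9266, against 1107, 1819 and 1005 in control arrays 8711, 9216 and 9266. Every mutant array was above every control array, and array 9216 was the highest of its group in both groups. The means were 2902 ± 685 in the mutants and 1310 ± 443 in the controls (SD, n = 3 each), a log2 difference of 1.17 (SE 0.28, 95% interval 0.50 to 1.84). Its limma p was 0.00437 and the adjusted p 0.536, so the difference did not pass over all probe sets. Of all genes tested, 1.46% had a difference at least as high as that of Gas1. The direction held with each array left out, as it must where the groups do not overlap. The difference ran from 1.0 without mutant 9216 to 1.43 without control 9216, and it was 1.33 without mutant 8711 (limma adjusted p = 0.183).

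The other Gas1 probe sets did not show a difference of that size. Probe set 1448494_at had 242, 366 and 523 in mutant arrays 8711, 9216 and 9266, against 447, 333 and 234 in the controls in the same order. The groups overlapped, the log2 difference was 0.14 (SE 0.36, 95% interval -0.72 to 1.0), and with 1 array left out it ran from -0.13 (without mutant 9266) to 0.42 (without mutant 8711). Probe set 1456322_at, dim in all arrays, had 24.7, 21.0 and 32 in the mutants, against 23.8, 23.7 and 7.6 in the controls, a log2 difference of 0.58 (SE 0.49) with overlap, or 0.10 without control 9266. With the 3 probe sets averaged on the log2 scale, Gas1 had a difference of 0.63 (SE 0.31, limma adjusted p = 0.726). The place of each probe set on the Gas1 transcript was not analysed here.

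Cdon, an immunoglobulin and fibronectin repeat protein that binds hedgehog ligand, had 2639, 1398 and 1389 in mutant arrays 8711, 9216 and 9266, against 2157, 1730 and 1795 in the controls. The mutant 8711 array was the highest of the 6 and the other mutant arrays were the lowest. The means were 1809 ± 719 in the mutants and 1894 ± 230 in the controls (SD, n = 3 each), a log2 difference of -0.13 (SE 0.28, 95% interval -0.79 to 0.53). The value depended on the mutant arrays: it was -0.44 without mutant 8711 (limma adjusted p = 0.512), where the groups no longer overlapped, and 0.03 without mutant 9266. The second Cdon probe set was under the filter, at 3.2 to 29.5 in all arrays.

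Boc, the paralogue of Cdon, was dim. It had 39.0, 27.9 and 62.8 in mutant arrays 8711, 9216 and 9266, against 45.4, 22.5 and 54.2 in the controls. Array 9216 was the lowest and array 9266 the highest in both groups, and the groups overlapped. The log2 difference was 0.10 (SE 0.46, 95% interval -1.0 to 1.19), and with 1 array left out it ran from -0.27 (without control 9216) to 0.36 (without mutant 9216). The second tested Boc probe set had 0.09 (SE 0.33), or 0.30 without mutant 8711, and the third was under the filter, at 0.8 to 9.1.

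Ptch1, the hedgehog receptor and a readout of the pathway, had 1459, 966 and 638 in mutant arrays 8711, 9216 and 9266, against 1180, 953 and 1017 in the controls. The mutant values lay on both sides of the control values. The means were 1021 ± 413 in the mutants and 1050 ± 117 in the controls (SD, n = 3 each), a log2 difference of -0.11 (SE 0.31, 95% interval -0.85 to 0.62). Without mutant 8711 it was -0.41 and without mutant 9266 it was 0.18. Mutant 9266 was the only array whose removal turned the sign. Probe set 1439663_at had 4.9, 33.1 and 27.9 in the mutants, against 45.8, 26.5 and 32.1 in the controls, a log2 difference of -0.91 (SE 0.67). The value in mutant 8711 was by far the lowest, and without that array the difference was -0.15. The mean of both tested probe sets gave Ptch1 a difference of -0.51 (SE 0.29). The third Ptch1 probe set was under the filter, at 1.2 to 3.8.

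Smo, the seven-pass membrane protein that Ptch1 restrains, had 568, 580 and 1041 in mutant arrays 8711, 9216 and 9266, against 971, 553 and 882 in the controls. Arrays of both groups were spread over the same range. The log2 difference was -0.15 (SE 0.33, 95% interval -0.93 to 0.62), and it was -0.0041 without mutant 8711 and -0.44 without mutant 9266. This probe set is of the type marked _s_at, which can detect transcripts of more than 1 gene. A second Smo probe set, 1427048_at, had 164, 258 and 677 in the mutants, against 628, 360 and 631 in the controls. Mutants 8711 and 9216 were below all controls and mutant 9266 was above them, with a log2 difference of -0.77 (SE 0.53), which was -0.32 without mutant 8711 and -1.34 without mutant 9266. The mean of both tested probe sets gave Smo a difference of -0.46 (SE 0.40). The third Smo probe set was under the filter, at 2.5 to 24.2.

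**Figure D2:**
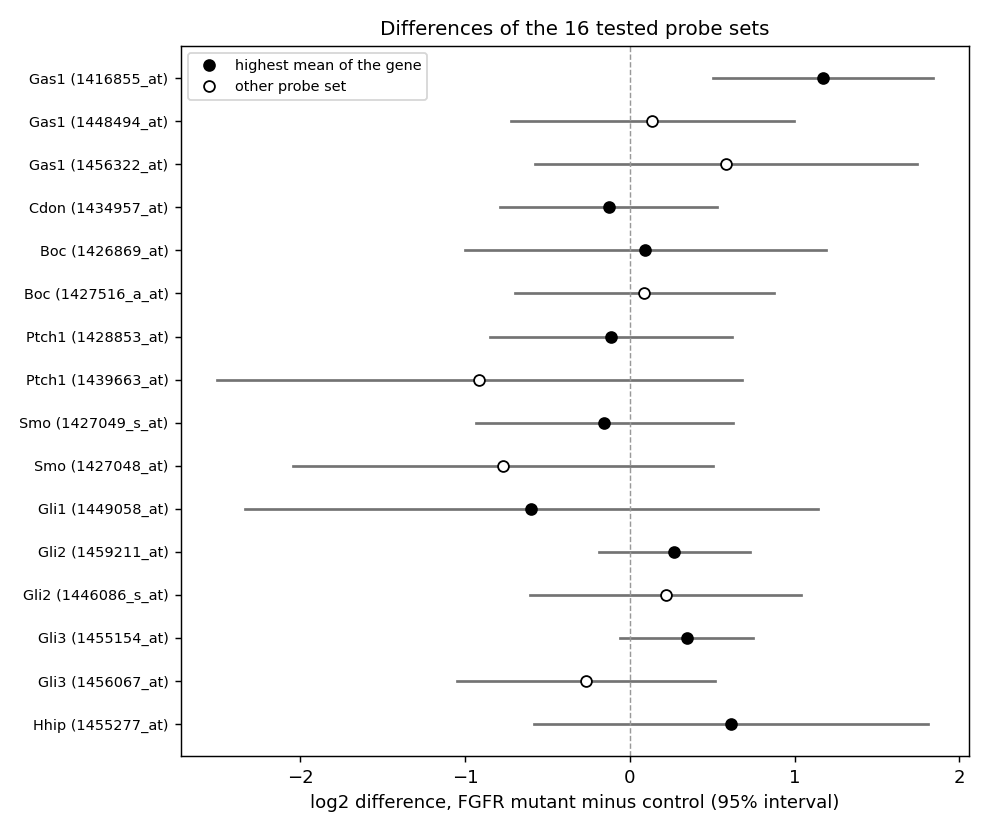
Log2 difference, FGFR mutant minus control, of the 16 tested probe sets with 95% intervals from limma. Filled points mark the probe set with the highest mean of a gene. The interval lies clear of 0 only for Gas1 probe set 1416855_at, at 0.50 to 1.84.

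Gli1, an activator that responding cells transcribe and the member most often read as a measure of pathway output, was measured by 1 probe set, which was dim. It had 10.7, 43.8 and 68.7 in mutant arrays 8711, 9216 and 9266, against 85.6, 27.1 and 52.9 in the controls. The lowest value was that of mutant 8711 and the highest that of control 8711, and the other 4 arrays of both groups were mixed. The log2 difference was -0.60 (SE 0.73, 95% interval -2.34 to 1.14). Its sign was set by the mutant 8711 array, since the difference was 0.13 without it. The difference was -0.22 without control 8711 alone and 0.51 without both 8711 arrays. The interval includes changes of more than 1 log2 unit in either direction, so Gli1 could not be read as higher or lower here.

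Gli2, the main activator of the family, had 550, 555 and 715 in mutant arrays 8711, 9216 and 9266, against 467, 533 and 498 in the controls. Every mutant array was above every control array, mutants 8711 and 9216 by little. The means were 607 ± 93.6 in the mutants and 499.5 ± 33.2 in the controls (SD, n = 3 each), a log2 difference of 0.27 (SE 0.19, 95% interval -0.19 to 0.73), with a limma adjusted p of 0.852. Without mutant 9266 the difference was 0.15. A second Gli2 probe set had 244, 136 and 267 in the mutants, against 198, 131 and 216 in the controls. Array 9216 was the lowest of both groups, and the log2 difference was 0.22 (SE 0.35) with overlap. With 1 array left out it ran from -0.00082 (without control 9216) to 0.52 (without mutant 9216), and it was 0.10 without mutant 8711.

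Gli3, the main repressor of the family, had 1455, 1297 and 1119 in mutant arrays 8711, 9216 and 9266, against 1033, 958 and 1040 in the controls. Every mutant array was above every control array. The means were 1290 ± 168 in the mutants and 1010 ± 45.3 in the controls (SD, n = 3 each), a log2 difference of 0.34 (SE 0.17, 95% interval -0.06 to 0.75), with a limma p of 0.0842 and an adjusted p of 0.852. A second Gli3 probe set, 1456067_at, had 354, 806 and 741 in the mutants, against 675, 716 and 760 in the controls. Only mutant 8711 was outside the range from 675 to 806, and it gave that probe set a log2 difference of -0.26 (SE 0.33), which was 0.11 without mutant 8711. The mean of both probe sets gave Gli3 a difference of 0.04. The third was under the filter, at 1.3 to 19.2. The arrays measure transcripts, so the balance of full-length and cut Gli3 protein was not measured.

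Hhip, a membrane protein that binds hedgehog ligand and holds it from Ptch1, was near the filter. Its tested probe set had 43.8, 12.7 and 32.1 in mutant arrays 8711, 9216 and 9266, against 14.5, 22.7 and 13.9 in the controls. Mutants 8711 and 9266 were the highest and mutant 9216 the lowest of the 6 arrays, with a log2 difference of 0.61 (SE 0.50, 95% interval -0.58 to 1.81), or 0.27 without mutant 8711 and 1.10 without mutant 9216. Of the 3 Hhip probe sets under the filter, 1421426_at had 6.5, 16.6 and 13.3 in the mutants, against 1.9, 5.0 and 1.7 in the controls. These did not overlap. With no filter on low values, where this probe set was tested as well, its log2 difference was 1.59 (SE 0.57), with a limma p of 0.0235 and an adjusted p of 0.844. The other 2 had 0.3 to 14.4, with differences of 1.33 (SE 0.76) and -0.11 (SE 0.38) in the same fit. The one with -0.11 had its lowest value, 0.8, in mutant 8711, and it was not fitted without that array.

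Of the 3 genes that the pathway is known to raise, Ptch1, Gli1 and Hhip, none had groups without overlap in a tested probe set. Of the 3 that it is known to lower, Gas1 was higher in the mutants in its brightest probe set, and Cdon and Boc had intervals on both sides of 0. These differences between genes were not themselves tested.

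When each mutant array was set against the control array of the same title number, Gas1 was higher in 3 of 3, by log2 differences of 1.04 for 8711, 1.0 for 9216 and 1.47 for 9266. Gli3 was higher in 3 of 3, by 0.49, 0.44 and 0.10 in the same order, and Gli2 in 3 of 3, by 0.23, 0.06 and 0.52. For Gas1, Gli2 and Gli3 any matching of arrays gives 3 of 3, since every mutant array was above every control array. Ptch1 had 0.31, 0.02 and -0.67, Cdon 0.29, -0.31 and -0.37, and Smo -0.77, 0.07 and 0.24. Gli1 had -2.82 for 8711, against 0.66 for 9216 and 0.37 for 9266, so 1 pair of arrays went the other way by the largest amount. Boc and Hhip also changed sign between numbers, with -0.21 to 0.29 and -0.76 to 1.49.

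**Figure D3:**
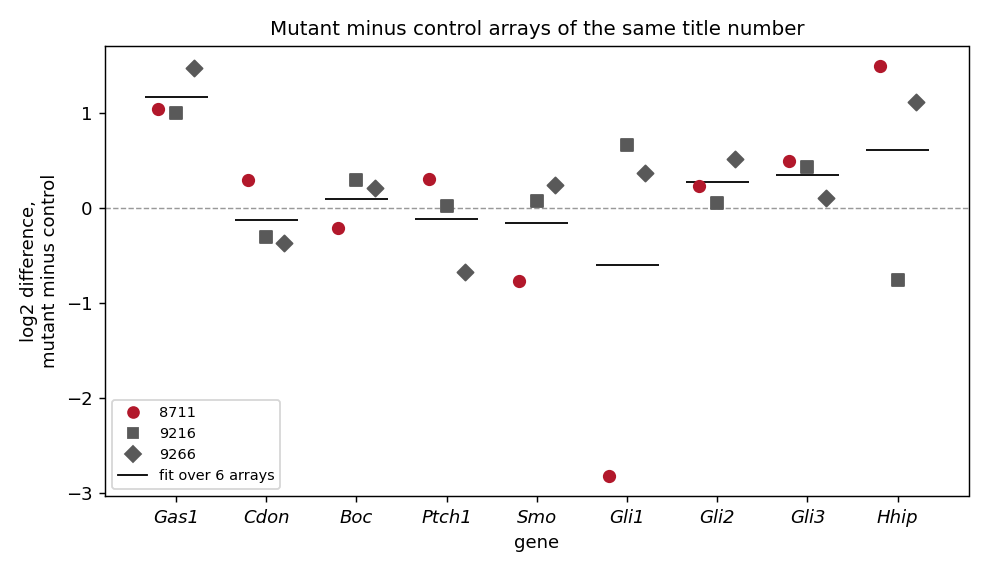
Log2 difference between the mutant and the control array of the same title number for the 9 genes, with the fit over 6 arrays as a bar. Gas1 lies between 1.0 and 1.47 in all 3, Gli2 and Gli3 lie above 0 in all 3, and the Gli1 point for 8711 lies at -2.82. For Gas1, Gli2 and Gli3 any matching of arrays gives values above 0.

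Of the 16 tested probe sets, 5 had their lowest value in the mutant 8711 array (31.3%), against 38.3% of all probe sets tested. These belonged to Ptch1, Smo, Gli1, Gli3 and Boc. In Gli3 the tested probe sets differed in sign, and without mutant 8711 none of the 6 genes with more than 1 tested probe set had probe sets of opposite sign, while without both 8711 arrays 2 had, Ptch1 and Smo. The part of RNA quality in that array's values was not tested.

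The rest of the pathway was read from 4 lists. Their counts stand beside 53.6% of all genes higher in the mutants. Of 11 genes for hedgehog ligands and their release and uptake, 7 were tested, 0 higher and 7 lower, with a median log2 difference of -0.11, and 0 had an unadjusted p under 0.05. Without mutant 8711, 1 was higher and 6 lower, with a median of -0.20. Of the 7, 0 had groups without overlap in either direction. Scube3 and Lrp2 had -0.00045 (SE 0.34) and -0.0049 (SE 0.26), so with all arrays they count as lower though they lie near 0. Without mutant 8711 they had -0.16 and -0.20. Shh, the ligand of the midline, was dim, with 35.5, 8.4 and 21.3 in mutant arrays 8711, 9216 and 9266, against 26.6, 29.1 and 20.8 in the controls, a log2 difference of -0.39 (SE 0.52) with overlap, or -0.82 without mutant 8711. Scube2, which helps release ligand from the cells that make it, had -0.99 (SE 0.57). Ihh and Dhh, the other ligands, were under the filter, and Ihh had 0.8 to 22.5 with overlap. Dhh had 5.5 to 8.6 in the mutants and 10.6 to 14.7 in the controls, with no overlap. Disp2, also under the filter, went the other way without overlap, at 13.2 to 20.2 in the mutants and 1.0 to 8.6 in the controls. None of these was tested.

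Of 24 genes for transduction and the primary cilium, in which Smo acts, 21 were tested, 10 higher and 11 lower, with a median of -0.03 and 0 at an unadjusted p under 0.05. Sufu, which holds Gli proteins inactive, had 224 ± 50.2 in the mutants and 247 ± 88.4 in the controls (SD, n = 3 each), a log2 difference of -0.09 (SE 0.35). Kif7, a kinesin that sets Gli processing at the ciliary tip, had 81.4 ± 11.03 in the mutants and 128 ± 36.1 in the controls (SD, n = 3 each), a difference of -0.61 (SE 0.30) with no overlap. Ift88, needed to build the cilium, had 0.36 (SE 0.21), also with no overlap. Without mutant 8711, 6 were higher and 15 lower, with a median of -0.08 and 1 at an unadjusted p under 0.05, which was lower. The share of all genes under that p without mutant 8711 was not counted, so this 1 gene has no background beside it.

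Of 14 kinases and ubiquitin ligase genes that act on Gli proteins, all 14 were tested, 8 higher and 6 lower, with a median of 0.04. Csnk1e, a casein kinase, was the 1 gene of the 14 with an unadjusted limma p under 0.05 (0.0466, adjusted p = 0.852). It was lower, and of all genes 4.4% were higher and 2.52% lower at that threshold. It had 197 ± 83.1 in the mutants and 356 ± 76.4 in the controls (SD, n = 3 each), a log2 difference of -0.93 (SE 0.39), or -0.53 without mutant 8711, where 0 of the 14 had an unadjusted p under 0.05.

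Of 20 genes reported as hedgehog targets in one tissue or another, 10 were tested, 3 higher and 7 lower, with a median of -0.22, or -0.38 without mutant 8711. At an unadjusted limma p under 0.05, 0 were higher and 3 lower, against 4.4% of all genes higher and 2.52% lower. Vax1, a homeobox gene of the optic stalk, had 323, 245 and 80.1 in mutant arrays 8711, 9216 and 9266, against 733, 595 and 559 in the controls. All mutant values were below all control values, with a log2 difference of -1.74 (SE 0.51, limma adjusted p = 0.688). Ccnd1 and Ccnd2, cyclins of the G1 phase that answer to many signals, had -1.55 (SE 0.44) and -1.03 (SE 0.16), with adjusted p of 0.667 and 0.356 in limma and no overlap. Targets of the ventral neural tube were at the bottom of the scale: Foxa2, Nkx2-2, Nkx6-1, Nkx2-1 and Olig2 had 0.2 to 14.3 in all arrays. Foxf2, Foxl1, Osr1 and Igfbp6 were also under the filter. Of the target genes under the filter, Foxf2 and Nkx2-2 were lower in the mutants without overlap, and the rest overlapped. Foxf2 had 6.8 to 12.1 in the mutants and 19.1 to 20.9 in the controls. Nkx2-2 had 0.6 to 3.6 in the mutants and 5.2 to 9.7 in the controls. None of these was tested. Vax1, Vax2 and Nkx2-2 are also among the optic stalk markers below, and Foxc2 among those of mesenchyme, so the lists are not independent.

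**Figure D4:**
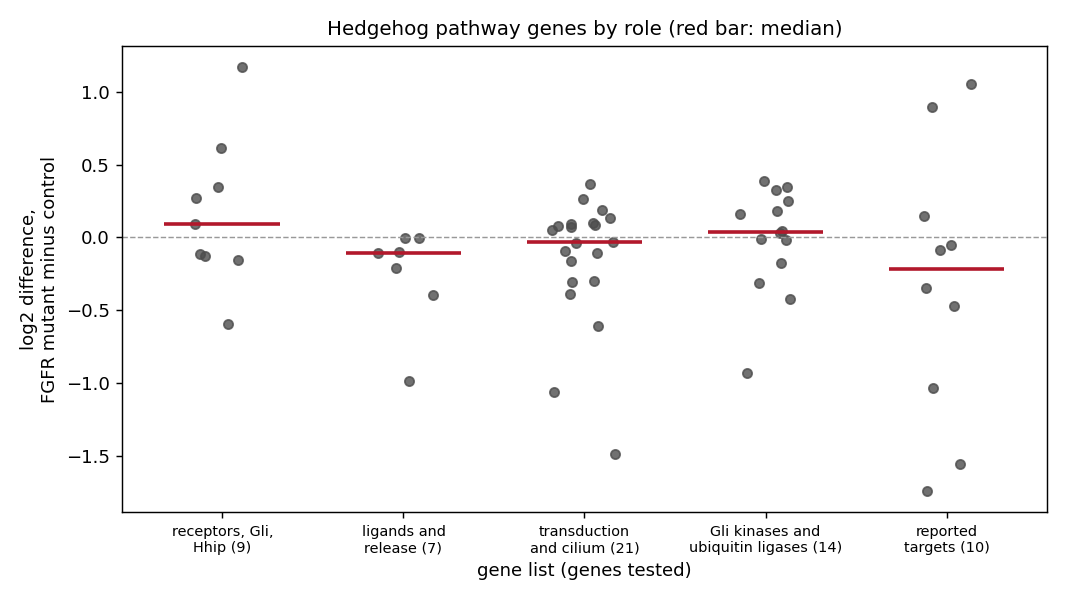
Log2 difference, FGFR mutant minus control, of each tested gene of the hedgehog pathway by role, with the median of each list as a red bar. The medians run from -0.22 for reported targets to 0.10 for the 9 receptor, Gli and Hhip genes, and the 3 lowest of the reported targets are Vax1, Ccnd1 and Ccnd2.

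Markers of the tissues that the dissection can hold differed between the groups, and their part in the values of Gas1 and the other genes was not tested. In bulk tissue, fewer cells of a type and less RNA per cell cannot be told apart. Of all genes tested, 53.6% were higher in the mutants. Of 12 markers of pigment epithelium 11 were tested and 11 were higher in the mutants, with summed intensities of 23880 to 38483 in the mutants and 14809 to 17082 in the controls, and Ttr was under the filter. Rab38 and Tfec, of the melanosome and of the Mitf family, had log2 differences of 1.25 and 1.33. Of 10 neural retina markers 8 were tested, 0 higher and 8 lower, with sums of 3381 to 4732 in the mutants and 6829 to 8044 in the controls. Fgf15 and Six6 had -1.74 and -1.11, and Hes5 was under the filter. Without mutant 8711, 1 of the 8 was higher and 7 were lower. Of 6 optic stalk markers 5 were tested, 1 higher and 4 lower, with sums of 2285 to 4300 in the mutants and 6152 to 6792 in the controls. Zic1 alone made up most of each sum, with 1196 to 2579 in the mutants and 4038 to 5282 in the controls. Lower values without overlap were found in 2 of the 5, against 5.43% of all genes. The 2 with the smallest p were Zic1 (-1.19) and Vax1, and Ntn1 had -1.28, with Nkx2-2 at 0.6 to 9.7.

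Periocular mesenchyme, which surrounds the cup and also expresses hedgehog receptors, had 14 of 16 markers tested, 13 higher and 1 lower. Their summed intensities were 2962 to 3504 in the mutants and 1209 to 2541 in the controls, with Twist1 at 1.73, Prrx1 at 1.0 and Meox2 under the filter. Of 10 macrophage markers, all 10 were tested, 7 higher and 3 lower, with sums of 2377 to 3009 in the mutants and 1442 to 1987 in the controls, and Lyz1 and Csf1r had 1.19 and 0.49. Endothelial, lens and surface ectoderm, and neural crest marker sums overlapped between the groups. Endothelial sums were 271 to 577 in the mutants and 394 to 725 in the controls, with 3 of 8 tested markers higher, Eng at -0.99 and Kdr at -0.95, and Pecam1 and Tie1 under the filter. Without mutant 8711, 5 of the 8 were higher, the median of the list was 0.20, against -0.06 with all arrays, and Eng and Kdr had -0.56 and -0.45. Lens and ectoderm sums were 902 to 3845 in the mutants and 1662 to 2214 in the controls, with Foxe3 under the filter. Of the 9 tested markers 3 were higher and 6 lower, with a median of -0.41. Krt18 and Krt8, with the smallest p, had 1.47 and 0.87, while the lens gene Cryaa had -1.73 and Cdh1 -1.48, both with overlap. Neural crest sums were 137 to 182 in the mutants and 146 to 193 in the controls, with 1 of 4 higher, Kit at -0.34, Erbb3 at -0.13 and Foxd3 under the filter. Without mutant 8711 Kit had 0.07 and Erbb3 -0.23.

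Likeness to Gas1 and Ptch1 was measured over the 6 arrays as the root mean square distance between log2 values, each gene centred on its own mean. The genes closest to Gas1 were Pdk1, Tshz1 and Grb14, at distances of 0.18, 0.18 and 0.19, against a median of 0.76 over all genes. Their log2 differences were 1.02, 0.92 and 0.87. Pdk1, a mitochondrial kinase that inhibits pyruvate dehydrogenase, had 1102, 1259 and 1206 in mutant arrays 8711, 9216 and 9266, against 522, 911 and 421 in the controls, with array 9216 the highest of each group as for Gas1. The genes closest to Ptch1 were Ruvbl2, Oat and Faap20, at 0.08, 0.10 and 0.10, against a median of 0.50. Ruvbl2, a helicase of chromatin remodelling complexes, had 390, 257 and 167 in the mutants, against 301, 269 and 308 in the controls. Genes near Gas1 and Ptch1 were picked by closeness over these same arrays, so like array orders and differences follow from the choice.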

How the data were processed

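RNA from 6 samples of microdissected optic fissure, 3 FGFR mutant and 3 control, was measured on 1 Affymetrix array each. Per the labels, biotin-labelled cRNA was made from Trizol-extracted total RNA, and the submitters' processing notes name MAS5, whose version is not given in the sources used here. Each deposited value is a linear intensity of 1 probe set. All arrays had a 2% trimmed mean of 150, so no further normalization was applied. Precision is limited by having 3 arrays per group.

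Of 45101 probe sets, 64 manufacturer controls were left out. The platform annotation gave 1 gene symbol to 34945 of the 45037 left, several to 932 and none to 9160, and 34741 matched a RefSeq gene by identifier. Values were analysed as log2(value + 1.7), where 1.7 is the 10th percentile of the whole table. Probe sets under the 40th percentile of mean log2 (4.07) were left out, leaving 27022. Groups, taken from the sample titles, were compared with limma 3.58.1 (eBayes with trend and robust, statmod 1.5.0) in R 4.3.3, with Benjamini-Hochberg adjustment over all probe sets tested and a threshold of 0.05. Gapdh and Actb ratios of 3 prime to 5 prime signal gave two-sided exact permutation p of 0.7 and 0.8, where 3 against 3 arrays allow 0.1 at the least. In simulated data with 100 probe sets changed 2-fold and 100 changed 4-fold (log2 changes of 1 and 2) among 27022, the test recovered 0% and 16%, with 0 false calls, so with this spread only a few large changes can pass.

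The member genes and all lists were chosen with earlier results of these data known. Beside the members, the rule named Shh, Ihh, Dhh and Sufu (1 further gene it names is not reported here), up to 4 genes of each pathway list with an unadjusted p under 0.05 or otherwise the 2 with the smallest p, from each marker list the 2 with the smallest p and those under the filter, and the 3 genes nearest to Gas1 and to Ptch1. The target genes listed as under the filter, and Disp2, Scube3, Lrp2, Ntn1, Cryaa and Cdh1, were chosen after their values were seen. Alternatives were other added values (16 and 1), quantile normalization, median centring, no filter or one at the 60th percentile, array weights, eBayes without trend and robust, a threshold of 0.10, a block for the title number, the mean of all probe sets of a gene, and leaving out each array or both 8711 arrays. Counts of members and lists without mutant 8711 were added after seeing the data. Plots used matplotlib 3.10.9 in Python 3.11.15.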

Additional observations from a re-analysis of the deposited data

How the results depend on the processing

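The median of the 9 genes was 0.10 and the number of probe sets called was 0. With 1 array left out the median ran from -0.18 to 0.33 and the number called from 0 to 1. That 1 was a probe set of Xist, the RNA of X inactivation, lower in the mutants, both without mutant 8711 and without both 8711 arrays, where 1 was called too. Its log2 difference was -6.84 without mutant 8711 and -7.33 without both 8711 arrays. The sample labels used here do not give the sex of the embryos. A difference in sex between the groups was not tested and cannot be told apart from the genotype. The number of the 9 genes lower in the mutants without overlap was 0, and 1 both without mutant 8711 and without both 8711 arrays. Array weights gave mutant 8711 a weight of 0.151 and control 8711 one of 5.98, against 0.625 to 1.59 in the remaining arrays. The control side of that fit thus rested mainly on 1 array. With these weights 184 probe sets were called, 100 higher and 84 lower, the median was -0.28 and Boc had -0.28. Gas1 passed in that fit, at 1.53 (limma adjusted p = 0.0239). Over the other 16 alternatives Gas1 ran from 0.63, as the mean of all its probe sets, to 1.43, with none passing. Gas1, Gli2, Gli3 and Hhip kept their sign in all alternatives that gave a value. Leaving out arrays could not turn the sign of Gas1, Gli2 or Gli3, whose groups did not overlap. That sign is of the brightest probe set or the mean of all. Gas1 probe set 1448494_at and the second Gli2 probe set turned sign with 1 array left out. The second Gli3 probe set had -0.26 with all arrays. The sign turned with 1 array left out for Cdon (-0.44 to 0.027), Boc (-0.27 to 0.36), Ptch1 (-0.41 to 0.18), Smo (-0.44 to 0.0035) and Gli1 (-1.12 to 0.13), and without both 8711 arrays for Smo (0.15) and Gli1 (0.51). The cause was not tested. Median centring moved the median of all probe sets from -0.05 to 0.06 and changed no sign of the 9 genes. With a filter at the 60th percentile Boc, Gli1 and Hhip gave no value.

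With the title number as a replicate block 0 probe sets were called and Gas1 was 1.17 (SE 0.17, limma adjusted p = 0.765). Same-numbered arrays had deviations from their group means that correlated at 0.05 for 8711, 0.48 for 9216 and -0.11 for 9266. Mutant and control arrays of different numbers had -0.45 to 0.35. The labels do not say what the numbers mark, and these few correlations cannot decide whether the numbers pair the samples.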
